A study of Homo sapiens with 19 samples.

Results

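TNFAIP3, which encodes the ubiquitin-editing enzyme A20, and 9 other genes that encode regulators of signalling to NF-kB and cell death were followed in human lymphoma cells carrying hairpins against EGR1. The other genes were the A20 partners TNIP1 and TNIP2, the inhibitor-of-apoptosis (IAP) genes BIRC2 and BIRC3, the adaptor genes TRAF1, TRAF2 and TRAF3, the deubiquitinase gene CYLD, and CFLAR. They were chosen by name, and all 10 were found by symbol among the 25365 genes used in the OCI-LY10 table, the 25267 in the TMD8 table and the 25266 in the SUDHL2 table. All 10 passed the filter on low values in OCI-LY10, in which 10612 genes were tested. OCI-LY10, TMD8 and SUDHL2 are established lymphoma lines, each from a diffuse large B-cell tumour of activated B-cell-like type. Every RNA library, controls included, came from cells with an inducible hairpin RNA that had received 20 ng/ml doxycycline for 2 days. The hairpin was a control sequence (shsc4), shEGR1#8 or shEGR1#9. OCI-LY10 had 3 libraries per hairpin, and TMD8 and SUDHL2 had 1 each, which made 15 RNA libraries of 19 samples. The 4 chromatin samples were not analysed here.

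A20 removes and replaces regulatory ubiquitin chains on signalling proteins and thereby limits NF-kB activity. TNIP1 and TNIP2 bind ubiquitin and A20. BIRC2 and BIRC3 encode the ubiquitin ligases cIAP1 and cIAP2, which TRAF2 recruits to receptors, and which act with TRAF2 and TRAF3 in the turnover of the kinase NIK. TRAF1 is an adaptor without the RING domain of other TRAF proteins, CYLD cuts ubiquitin chains, and CFLAR encodes c-FLIP, a catalytically inactive relative of caspase-8 that blocks death receptor signalling. Activated B-cell-like lymphoma depends on constant NF-kB activity, and TNFAIP3, BIRC3 and TRAF1 are known NF-kB target genes.

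Promoter sequence shows how these genes differ in their match to the binding motif of NF-kB. RefSeq windows of 250 bases before a start site (GRCh38.p14) were at hand for all 10 genes, 19 windows in all. The 10-base kappaB motif, searched on both strands, was in 12.3% of the 35116 windows of all genes and in 8 of these 19, from 7 genes. TNFAIP3 and BIRC3 had 2 matches each, shown in capitals, and TRAF1 had none in any of its 3 windows. The next 3 lines give the windows of TNFAIP3 and BIRC3 and the first window of TRAF1, each 5′ to 3′ on the gene's own strand. These are the genes whose OCI-LY10 libraries separated by group.
TNFAIP3 at chr6:137867009-137867258, plus strand: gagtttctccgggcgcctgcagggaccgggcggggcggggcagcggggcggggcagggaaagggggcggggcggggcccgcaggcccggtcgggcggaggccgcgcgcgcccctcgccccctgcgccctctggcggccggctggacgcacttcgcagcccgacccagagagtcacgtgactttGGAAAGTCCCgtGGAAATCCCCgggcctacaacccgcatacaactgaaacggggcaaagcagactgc
BIRC3 at chr11:102317234-102317483, plus strand: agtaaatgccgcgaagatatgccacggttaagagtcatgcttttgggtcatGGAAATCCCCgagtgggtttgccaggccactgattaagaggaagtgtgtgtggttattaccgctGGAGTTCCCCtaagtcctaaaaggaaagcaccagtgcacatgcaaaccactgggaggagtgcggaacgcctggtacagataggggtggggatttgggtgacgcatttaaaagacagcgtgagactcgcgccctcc
TRAF1 at chr9:120929172-120929421, minus strand: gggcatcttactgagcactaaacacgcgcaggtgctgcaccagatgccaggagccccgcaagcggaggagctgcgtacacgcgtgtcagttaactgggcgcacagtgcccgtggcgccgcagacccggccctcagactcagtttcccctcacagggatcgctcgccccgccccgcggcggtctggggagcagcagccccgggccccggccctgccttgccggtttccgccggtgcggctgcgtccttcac
In TNFAIP3 the matches lay 67 to 58 and 55 to 46 bases before the start, and in BIRC3 199 to 190 and 135 to 126 bases before it. TNIP1, TNIP2 and TRAF3, which kept overlapping values between the groups, had 1 match each in 1 window. The 30 bases around it are shown.
TNIP1 at chr5:151081057-151081086, minus strand: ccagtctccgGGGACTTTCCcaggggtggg
TNIP2 at chr4:2756357-2756386, minus strand: ggcgcaccggGGAAAGTTCCgggaagggcg
TRAF3 at chr14:102777406-102777435, plus strand: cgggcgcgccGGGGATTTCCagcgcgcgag
CYLD had a match in 1 of its 3 windows and CFLAR in 2 of its 4, while TRAF2 and BIRC2 had none. CYLD, CFLAR, TRAF2 and BIRC2 also kept overlapping values between the groups. Any tie of matches to the differences was not tested. The motif GCGNGGGCG, which EGR1 and related zinc finger proteins bind, was in 8.41% of all windows on either strand and in 5 of these 19. It was found for BIRC2, TRAF3 and CYLD, at the same site in 2 overlapping windows of BIRC2 and of CYLD, and no match overlapped a kappaB match. The TRAF3 window held 2 of them side by side, the second of which is in capitals here.
TRAF3 at chr14:102777381-102777409, plus strand: cgcgcgggcgGCGGGGGCGgggcggcggg
A match is a run of letters, and binding at these sites was not measured in the RNA data.

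The hairpin target was first checked in every library. EGR1 was at 8.57, 9.59 and 12.3 FPKM (fragments per gene length and library size, the unit read from the values) in the OCI-LY10 controls. It was at 10.04, 11.4 and 20.5 FPKM in the libraries labelled shEGR1#8, and at 10.8, 11.8 and 22.7 FPKM in those labelled shEGR1#9. No OCI-LY10 library labelled with a hairpin against EGR1 had less EGR1 RNA than the control mean of 10.2 ± 1.93 FPKM by more than the control spread (SD, n = 3). In TMD8 EGR1 was at 7.31 FPKM in the control, 10.8 in shEGR1#8 and 9.95 in shEGR1#9, and in SUDHL2 at 17.0, 13.7 and 15.4 FPKM. Labels therefore name the libraries below, and no direction is tied to a measured loss of EGR1 RNA.

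Summed values were 431993 to 445028 FPKM in the OCI-LY10 libraries, with 10319 to 10499 genes at 1 FPKM or more. Read depth is unknown. The 6 B cell marker genes were each at 1 FPKM or more in every library of each line. In OCI-LY10 they summed to 1954 to 2088 FPKM in control, 2230.4 to 2499.8 in shEGR1#8 and 2263 to 2359 in shEGR1#9, higher in every hairpin library than in any control. IRF4, a marker of the activated B-cell-like type, was lower in every hairpin library, at 104 to 105 FPKM in control, 92.0 to 98.6 in shEGR1#8 and 92.9 to 98.3 in shEGR1#9. The 6 T and NK cell markers summed to 0.0388 to 0.0888 FPKM in control, 0.0631 to 0.0933 in shEGR1#8 and 0.187 to 0.357 in shEGR1#9. The 5 myeloid markers summed to at most 0.0793 FPKM in any library. The 6 fibroblast and epithelial markers summed to 6.10 to 6.31 FPKM in control, 6.78 to 8.68 in shEGR1#8 and 6.96 to 7.88 in shEGR1#9, nearly all of it EPCAM. The part of these marker shifts in the differences of TNFAIP3, TRAF1 and the other regulators was not tested. Genes were taken as short non-coding RNAs by name prefix alone, such as SNOR, RNU or MIR, and not by length. In TMD8 these RNAs held 36.3% of the summed values in the control but 61.5 and 58.0% in shEGR1#8 and shEGR1#9. The TMD8 control thus stands apart within its table. Their share was 50.4 to 54.4% in SUDHL2 and at most 0.613% in OCI-LY10. For each pair of libraries, the shift that gave the most whole-number ratios among low values was used, with a tolerance of 0.01 in log2. Between the TMD8 hairpin libraries, 87.6% of genes under 0.08 FPKM stood in a ratio of whole numbers up to 4. Against the TMD8 control this was so for 10.4% with shEGR1#8 and 8.065% with shEGR1#9. In SUDHL2 it was so for 81.0 to 88.2% in every pair of libraries. The reason, and its part in the TMD8 differences, was not tested. In OCI-LY10 the third shEGR1#8 library stood apart: 55.2% of all tested genes had their lowest or highest value of the 9 libraries there, against 8.12 to 27.7% in each of the other 8. Among the 10 regulators it held the lowest value of BIRC2, BIRC3, CYLD and CFLAR and the highest of TNIP1, TNIP2, TRAF1, TRAF2 and TRAF3, so 9 of 10 had an extreme there.

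TRAF1 and TNFAIP3 rose in OCI-LY10 cells with either EGR1 hairpin label, and the other 8 regulators did not pass the test. Over all genes, 8.56% were called in this contrast, 5.84% as rising and 2.71% as falling (limma, adjusted p under 0.05). The median log2 difference was 0.05 over the 10 regulators and 0.03 over all genes tested. The 2 calls in 10 genes are a larger share than that background, but 10 genes are too few to read this as a trait of the set. The 10 genes were also chosen with earlier results of these data known, so the larger share adds no support. In bulk RNA, fewer cells with a transcript and less of it per cell cannot be told apart. Differences below are in log2(FPKM + 1), a scale on which changes of low genes appear smaller, and average both hairpin contrasts unless 1 is named.

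**Figure D1:**
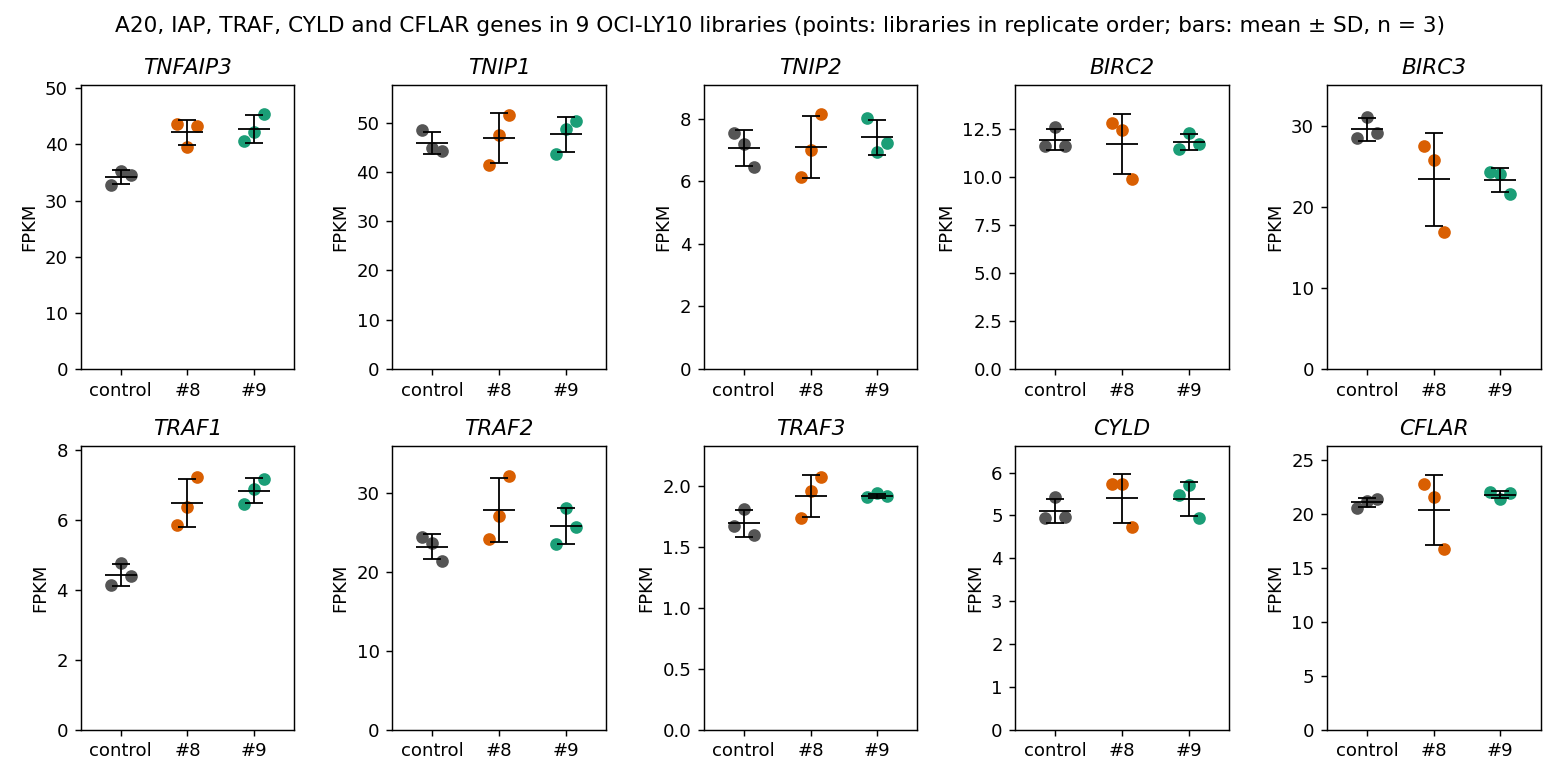
FPKM (vertical axes, starting at 0) of the 10 regulators in the 9 OCI-LY10 libraries, by hairpin group. Points are libraries, and horizontal bars with whiskers are mean ± SD (n = 3). The 6 hairpin libraries lie above all 3 controls for TNFAIP3 and TRAF1 and below them for BIRC3, and the third shEGR1#8 library is lowest for BIRC2, BIRC3, CYLD and CFLAR.

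TNFAIP3 stood at 32.9, 35.4 and 34.6 FPKM in the controls, at 43.7, 39.6 and 43.3 FPKM in shEGR1#8 and at 40.5, 42.3 and 45.4 FPKM in shEGR1#9. Every hairpin library was above every control, a separation that 12.9% of all tested genes showed. Its mean was 34.3 ± 1.28 FPKM in control, 42.2 ± 2.26 in shEGR1#8 and 42.7 ± 2.45 in shEGR1#9 (SD, n = 3). A20 RNA rose by 0.30 (SE 0.0566, 95% interval 0.17 to 0.43, limma adjusted p = 0.0139), or 1.23-fold in FPKM + 1. The limma adjusted p reached 0.0784, 0.0519 and 0.0688 without control library 1, 2 and 3 in turn, and ran from 0.00446 to 0.0821 over 17 other settings. The highest of these came with replicate 3 left out of every group.

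TNIP1, the more abundant partner of A20, was at 48.5, 44.8 and 44.3 FPKM in the controls, 41.4, 47.6 and 51.5 in shEGR1#8 and 43.7, 48.7 and 50.4 in shEGR1#9. The groups overlapped, and the difference of 0.04 had a 95% interval of −0.14 to 0.21 (limma adjusted p = 0.782). TNIP2 was at 6.45 to 7.55 FPKM in the controls and 6.15 to 8.15 in the hairpin libraries, and its difference was 0.03 (95% interval −0.17 to 0.23, limma adjusted p = 0.848). TNFAIP3 thus had a call that neither partner had, which does not show that they differ. As a description chosen after the values were seen, the ratio of TNFAIP3 to TNIP1 within a library was 0.677 to 0.789 in the controls and 0.832 to 1.05 in the hairpin libraries. These ratios did not overlap, with means of 0.749 ± 0.0622 (SD, n = 3) and 0.904 ± 0.0821 (SD, n = 6). The ratio of TNFAIP3 to TNIP2 overlapped, at 4.35 to 5.36 and 5.04 to 7.10. Both ratios set a gene that separated by group over one that did not, and so add no support.

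BIRC3, which encodes cIAP2, was the regulator with the lowest hairpin values relative to control. It stood at 28.5, 31.2 and 29.1 FPKM in the controls, at 27.6, 25.8 and 16.9 in shEGR1#8 and at 24.3, 24.1 and 21.6 in shEGR1#9. All 6 hairpin libraries were below all controls, as was so for 8.22% of all tested genes, and the third shEGR1#8 library was far below the others. The difference of −0.34 (SE 0.134, 95% interval −0.65 to −0.04) was not called (limma adjusted p = 0.149, unadjusted p = 0.0313). Without the third shEGR1#8 library it was smaller, −0.24, but called (limma adjusted p = 0.0319), and with array weights, which count noisy libraries less, it was −0.25 and called (adjusted p = 0.0371). The limma adjusted p ran from 0.0319 to 0.337 over the 17 settings and passed in those 2.

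BIRC2, which encodes cIAP1, was at 11.6, 12.6 and 11.6 FPKM in the controls, 12.8, 12.4 and 9.91 in shEGR1#8 and 11.5, 12.3 and 11.7 in shEGR1#9. Its groups overlapped, with a difference of −0.02 (95% interval −0.20 to 0.15, limma adjusted p = 0.868). BIRC2 and BIRC3 are neighbours on human chromosome 11. The ratio of BIRC3 to BIRC2 within a library is likewise a description chosen after the values were seen. It sets a gene that separated by group over one that did not, and so adds no support. This ratio was 2.45 to 2.50 in the controls, a mean of 2.48 ± 0.0279 (SD, n = 3). It was 1.70 to 2.15 in the hairpin libraries, a mean of 1.98 ± 0.176 (SD, n = 6), and did not overlap the controls. The third shEGR1#8 library, in which both genes were lowest, also had the lowest ratio.

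**Figure D2:**
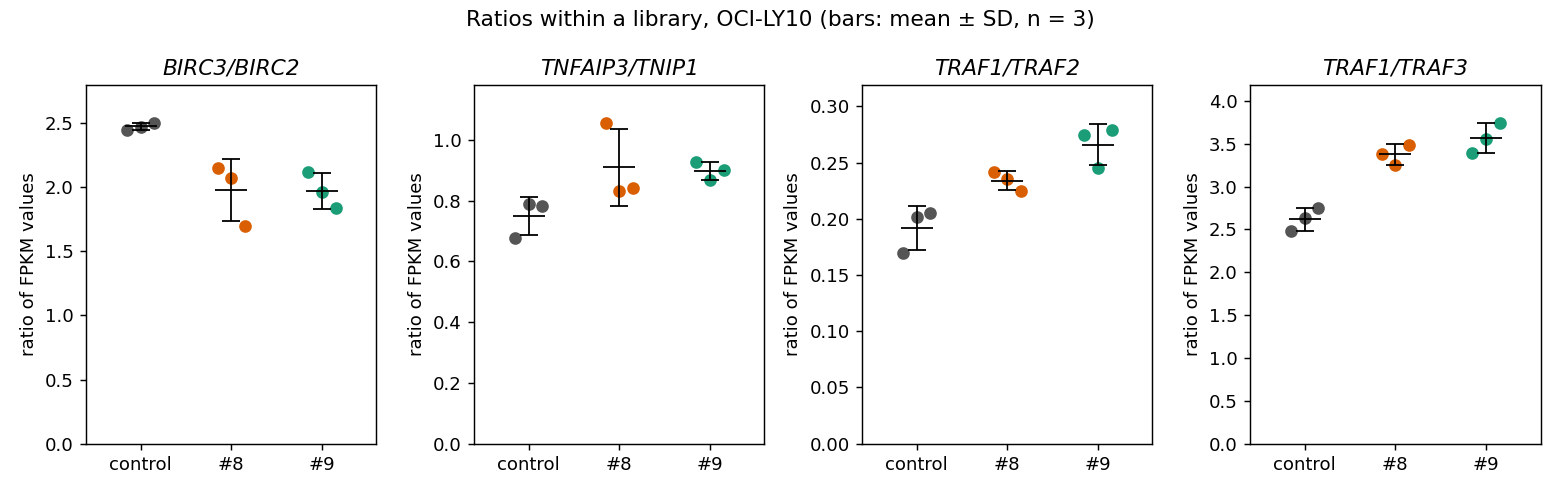
Ratio of 2 FPKM values within each OCI-LY10 library (vertical axes, starting at 0), by hairpin group. The ratios were chosen after the values were seen. Points are libraries, and bars with whiskers are mean ± SD (n = 3). The BIRC3 to BIRC2 ratio is 2.45 to 2.50 in the controls and 1.70 to 2.15 in the hairpin libraries, while TNFAIP3 to TNIP1, TRAF1 to TRAF2 and TRAF1 to TRAF3 lie higher in every hairpin library.

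TRAF1 had the largest difference of the 10 genes. It stood at 4.14, 4.77 and 4.40 FPKM in the controls, at 5.86, 6.37 and 7.24 in shEGR1#8 and at 6.48, 6.90 and 7.18 in shEGR1#9. All 6 hairpin libraries were above all controls, and the lowest of them exceeded the highest control by more than the control range. Its mean was 4.44 ± 0.315 FPKM in control, 6.49 ± 0.697 in shEGR1#8 and 6.85 ± 0.353 in shEGR1#9 (SD, n = 3). The adaptor's RNA rose by 0.50 (SE 0.0718, 95% interval 0.33 to 0.66, limma adjusted p = 0.00492), or 1.41-fold in FPKM + 1. It stayed called in all 17 settings, with limma adjusted p from 0.000642 to 0.0421 and a difference of 0.43 to 0.58.

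TRAF2, the adaptor that recruits the cIAP proteins, was at 24.4, 23.7 and 21.4 FPKM in the controls, 24.2, 27.1 and 32.2 in shEGR1#8 and 23.6, 28.1 and 25.8 in shEGR1#9. Of the hairpin libraries 4 of 6 were above all controls, and the difference of 0.20 was not called (95% interval −0.01 to 0.41, limma adjusted p = 0.218). TRAF3, which brings NIK to the cIAP ligases, was the lowest of the 10 genes in OCI-LY10. It was at 1.67, 1.81 and 1.60 FPKM in the controls, 1.73, 1.96 and 2.07 in shEGR1#8 and 1.91, 1.94 and 1.92 in shEGR1#9. Of its hairpin libraries 5 of 6 were above all controls, and its difference of 0.12 was not called (95% interval −0.03 to 0.26, limma adjusted p = 0.276). The ratio of TRAF1 to TRAF2 was 0.169 to 0.205 in the controls and 0.225 to 0.279 in the hairpin libraries. The ratio of TRAF1 to TRAF3 was 2.48 to 2.75 and 3.26 to 3.74. These ratios too were chosen after the values were seen, and set a gene that separated by group over genes that did not. That TRAF1 stood higher relative to both in all 6 libraries is thus a description and adds no support. In TMD8 the ratio of TRAF1 to TRAF2 was 0.440 in the control and lower with shEGR1#8 and shEGR1#9, at 0.348 and 0.384. In SUDHL2 it was 0.242, then 0.448 and 0.460. The ratio of TRAF1 to TRAF3 was 0.202, 0.174 and 0.242 in TMD8 and 0.170, 0.268 and 0.333 in SUDHL2.

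CYLD and CFLAR did not separate by group. CYLD was at 4.93 to 5.44 FPKM in the controls and 4.74 to 5.72 in the hairpin libraries, a difference of 0.06 (95% interval −0.10 to 0.23, limma adjusted p = 0.616). CFLAR was at 20.6, 21.2 and 21.4 FPKM in the controls, 22.8, 21.6 and 16.7 in shEGR1#8 and 22.0, 21.4 and 22.0 in shEGR1#9. Its difference was −0.01 (95% interval −0.20 to 0.19, limma adjusted p = 0.975), and 5 of 6 hairpin libraries were above all controls while the third shEGR1#8 library was below all. Without that library the CFLAR difference was 0.06 (limma adjusted p = 0.334, the lowest of 17 settings, which reached 0.999).

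Each hairpin label was also set against the same 3 controls, so these contrasts are not independent. For shEGR1#8, 5.33% of all genes were called, 3.71% as rising and 1.62% as falling, and TRAF1 (0.46, SE 0.0830, limma adjusted p = 0.0193) and TNFAIP3 (0.29, SE 0.0654, limma adjusted p = 0.0391) were the 2 regulators that rose. For shEGR1#9, 5.09% were called, 3.55% as rising and 1.54% as falling, and the regulators that rose were again TRAF1 (0.53, SE 0.0830, limma adjusted p = 0.00965) and TNFAIP3 (0.31, SE 0.0654, limma adjusted p = 0.0318). BIRC3 was at −0.35 (limma adjusted p = 0.209) and −0.33 (limma adjusted p = 0.279). The calls for single labels were less stable: TNFAIP3 passed in 7 of 17 settings for shEGR1#8 (limma adjusted p 0.0327 to 0.144) and in 9 of 17 for shEGR1#9 (0.00372 to 0.145). TNFAIP3 lost the shEGR1#8 call without control 1, 2 or 3 (limma adjusted p = 0.144, 0.0967 and 0.134), without shEGR1#8 library 1 or 3 (0.0766 and 0.0608) and without shEGR1#9 library 1 or 2 (0.0581 and 0.0761). The TNFAIP3 call for shEGR1#8 was also lost with a replicate block (limma adjusted p = 0.0655), with median-ratio scaling (0.0539) and with replicate 3 left out of every group (0.136). It lost the shEGR1#9 call without control 1, 2 or 3 (limma adjusted p = 0.126, 0.0891 and 0.114) and without shEGR1#9 library 1, 2 or 3 (0.0589, 0.113 and 0.131), as well as with a replicate block (0.0586) and with replicate 3 left out of every group (0.145). TRAF1 passed in 14 and 12 of 17 (limma adjusted p 0.00923 to 0.106 and 0.000484 to 0.0581). It lost the shEGR1#8 call without control 1 or 3 (limma adjusted p = 0.0836 and 0.0840) and with replicate 3 left out of every group (0.106). It lost the shEGR1#9 call without control 1 or 3 (limma adjusted p = 0.0506 and 0.0515) and without shEGR1#9 library 2 or 3 (0.0530 and 0.0518), and with replicate 3 left out of every group (0.0581). BIRC3 passed for shEGR1#9 without the third shEGR1#8 library (limma adjusted p = 0.0156) and with array weights (0.0234), in a range of 0.0156 to 0.594.

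Between the hairpin labels themselves no regulator was called, and limma called 0% of all genes, with 267 of 10612 and none of the 10 regulators at an unadjusted p under 0.05. The difference of shEGR1#9 from shEGR1#8 was 0.02 for TNFAIP3 (95% interval −0.13 to 0.17) and 0.07 for TRAF1 (95% interval −0.12 to 0.26). For BIRC3 it was 0.02, with a wider interval of −0.33 to 0.37.

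**Figure D3:**
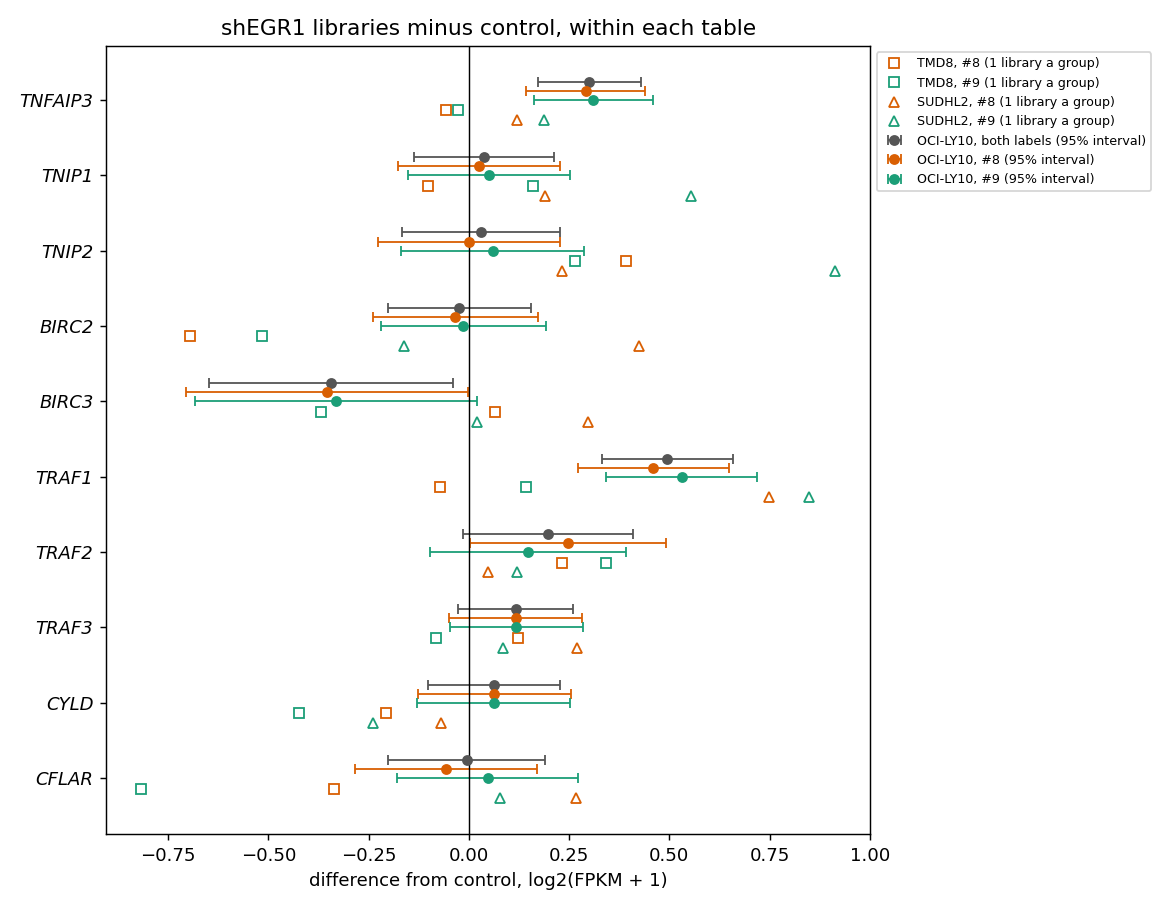
Difference of each shEGR1 label from control in log2(FPKM + 1) (horizontal axis) for the 10 regulators (rows). Filled circles with 95% intervals are OCI-LY10, and open squares (TMD8) and triangles (SUDHL2) are single libraries with no error. The OCI-LY10 intervals for TNFAIP3 and TRAF1 lie above 0 with either label, and CFLAR and BIRC2 lie lowest in TMD8.

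A list of 49 further genes of the same pathways was read in the same fit. It holds A20 partners, linear ubiquitin ligase genes, other deubiquitinases, ubiquitin-conjugating enzymes, receptor adaptors and caspases, other IAP and TRAF genes, kinases, and signalling genes that include MYD88. Of the 46 tested, 1 rose, 1 fell and 44 were not called, beside 8.56% of all genes called, and their median was 0.07. At an unadjusted limma p under 0.05 there were 15 of 46, beside 2767 of all 10612 genes tested. The counts moved with the settings. Without the third shEGR1#8 library 4 list genes rose and 2 fell, beside 874 and 438 of all genes. With array weights 9 list genes rose and 2 fell, beside 1287 and 627 of all genes. No list gene was called without control 1, 2 or 3 or with replicate 3 left out of every group. In that last setting 246 of all genes rose and 107 fell. TNIP3 was listed at 0, and CASP10 (0.113 to 0.289 FPKM) and TRAF3IP3 (0.373 to 0.817 FPKM) were below the level tested.

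MYD88, the adaptor of Toll-like and interleukin-1 receptors, was at 35.5, 33.2 and 36.7 FPKM in the controls, 42.4, 39.1 and 44.6 in shEGR1#8 and 42.9, 46.5 and 45.8 in shEGR1#9. All 6 hairpin libraries were above all controls, and it rose by 0.30 (SE 0.0589, limma adjusted p = 0.0166). XIAP, an IAP gene whose protein inhibits caspases, was at 7.50, 8.03 and 7.87 FPKM in the controls, 5.74, 6.48 and 5.37 in shEGR1#8 and 6.83, 6.38 and 5.81 in shEGR1#9. All 6 were below all controls, and XIAP fell by 0.31 on the log2 scale (SE 0.0692, limma adjusted p = 0.0261). The MYD88 call was lost without control 1, 2 or 3 (limma adjusted p = 0.0694, 0.0868 and 0.0533) and with replicate 3 left out of every group (0.0684). The XIAP call was lost in the same settings (limma adjusted p = 0.0784, 0.115, 0.118 and 0.128) and without shEGR1#9 library 2 or 3 (0.0623 and 0.0566). In TMD8 XIAP was at 3.86 FPKM in the control and 5.62 and 5.53 with shEGR1#8 and shEGR1#9, above the control with both labels and so opposite to OCI-LY10, a difference between lines that was not tested. In SUDHL2 it was at 5.25, 4.52 and 4.39 FPKM. MYD88 was above the control with both labels in TMD8 (29.9, then 35.8 and 36.1 FPKM) and in SUDHL2 (44.1, then 51.8 and 57.2 FPKM). Over 17 settings of the OCI-LY10 fit the limma adjusted p ran from 0.00606 to 0.0868 for MYD88 and from 0.0110 to 0.128 for XIAP.

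Profiles most like those of the called regulators were sought over the 9 OCI-LY10 libraries, by the root mean square difference of centred log2(FPKM + 1) values. For TNFAIP3 the nearest of all tested genes were DNAJA4 (0.0381), WDR45 (0.0403) and PARP12 (0.0415), against a median of 0.184 over all genes. For TRAF1 they were FRMPD1 (0.0408), PREX1 (0.0506) and KANK2 (0.0521), against a median of 0.264. The nearest genes were picked as the smallest distances, so they lie below the median by construction.

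TMD8 and SUDHL2 had 1 library per hairpin, so their differences have no replicate check and no test. A difference was counted past 1.5-fold of FPKM + 1. In TMD8 13.8% of all genes were higher and 19.9% lower by that much with shEGR1#8, and 13.2% and 18.4% with shEGR1#9. With both labels, 6.78% were higher and 13.9% lower past that limit. BIRC2 was at 8.00 FPKM in the control, 4.56 in shEGR1#8 and 5.30 in shEGR1#9, differences of −0.69 and −0.52. CFLAR was at 111 FPKM in the control, 87.5 in shEGR1#8 and 62.4 in shEGR1#9, differences of −0.34 and −0.82. These 2 were the only regulators past the limit in TMD8, BIRC2 with shEGR1#8 and CFLAR with shEGR1#9, and the part of the short RNA share in these values was not tested. CYLD was also below control with both labels (4.70 FPKM, then 3.94 and 3.24). TNIP2 (12.1 FPKM, then 16.2 and 14.7) and TRAF2 (10.4, then 12.4 and 13.4) were above it with both. By any amount 2 of 10 regulators were above control with both labels and 4 below it, beside 35.7% and 41.4% of all genes.

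The genes that rose in OCI-LY10 lay close to control in TMD8. TNFAIP3 was at 15.5 FPKM in the control, 14.9 in shEGR1#8 and 15.2 in shEGR1#9, and TRAF1 at 4.58, 4.31 and 5.16 FPKM. The TNFAIP3 difference for shEGR1#8 was −0.06, and 0.03 with median-ratio scaling between libraries, and that scaling moved TRAF1 from −0.07 to 0.00. BIRC3 was at 9.91, 10.4 and 7.44 FPKM and TNIP1 at 86.5, 80.5 and 96.7 FPKM, on either side of the control. TRAF3, at 22.6, 24.7 and 21.3 FPKM, was too.

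In SUDHL2 TRAF1 was at 2.87 FPKM in the control, 5.51 in shEGR1#8 and 5.97 in shEGR1#9, differences of 0.75 and 0.85. It was past 1.5-fold with both labels, as were 3.83% of all genes in that direction (2.16% in the other), and no other regulator was. In all, 6.12% of genes were higher and 3.9% lower past that limit with shEGR1#8, and 9.69% and 8.28% with shEGR1#9. TNIP2 was at 8.16 FPKM in the control, 9.77 in shEGR1#8 and 16.3 in shEGR1#9, the last past the limit at 0.91. TNIP1 was at 68.1, 77.8 and 100.4 FPKM, differences of 0.19 and 0.55. TNFAIP3 was at 20.7, 22.6 and 23.7 FPKM, differences of 0.12 and 0.19. By any amount 8 of 10 regulators, all but BIRC2 and CYLD, were above the control with both labels and CYLD below it, beside 37.3% and 35.4% of all genes. The ratio of TNFAIP3 to TNIP1 was 0.304 in the control and 0.290 and 0.236 with the labels, and 0.179, 0.185 and 0.157 in TMD8, so neither line had both labels above the control.

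The IAP and death genes did not separate in SUDHL2 past the limit. BIRC2 was at 4.34, 6.17 and 3.78 FPKM in control, shEGR1#8 and shEGR1#9, and BIRC3 at 8.76, 10.98 and 8.89 FPKM. CFLAR was at 70.8, 85.5 and 74.8 FPKM, and CYLD at 4.27, 4.02 and 3.46 FPKM. TRAF2 was at 11.9, 12.3 and 13.0 FPKM and TRAF3 at 16.9, 20.5 and 17.9 FPKM. The ratio of BIRC3 to BIRC2 was 2.02, 1.78 and 2.35 in SUDHL2 and 1.24, 2.28 and 1.40 in TMD8.

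The order of the 10 genes by level differed between the lines, as the plot of levels in the 15 libraries shows. Each line has its own table, perhaps normalized on its own, so levels across lines are descriptions. In the OCI-LY10 controls TNIP1 was highest, followed by TNFAIP3, BIRC3, TRAF2, CFLAR, BIRC2, TNIP2, CYLD, TRAF1 and TRAF3. Over the 9 libraries the ranges of TNIP1 and TNFAIP3 overlapped, as did those of BIRC3, TRAF2 and CFLAR in turn and of CYLD and TRAF1. TNFAIP3 and BIRC3, CFLAR and BIRC2, BIRC2 and TNIP2, TNIP2 and CYLD, and TRAF1 and TRAF3 did not overlap.

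**Figure D4:**
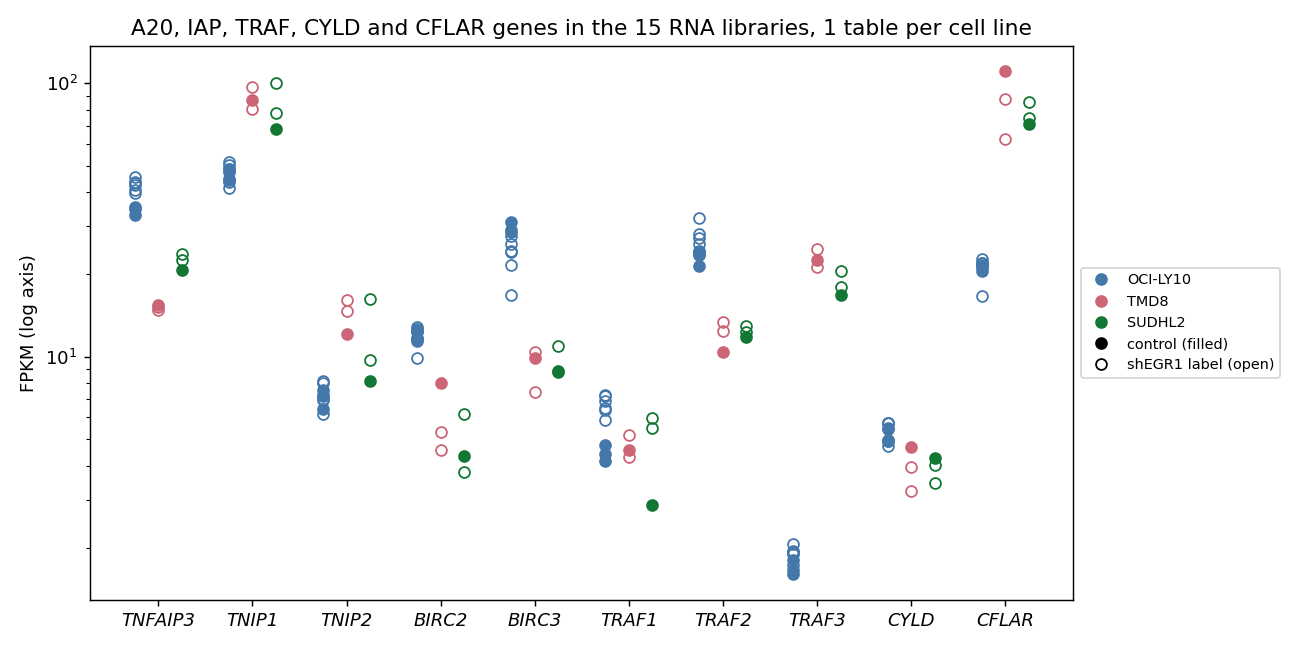
FPKM on a log axis (vertical) of the 10 regulators (horizontal) in the 15 RNA libraries, with colours for the cell lines, filled points for controls and open points for shEGR1 labels. TRAF3 lies at 1.60 to 2.07 FPKM in OCI-LY10 but at 21.3 to 24.7 in TMD8 and 16.9 to 20.5 in SUDHL2, and CFLAR is at 62.4 FPKM or more in the latter lines.

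In TMD8 and SUDHL2 CFLAR was the highest in the control and TNIP1 came next, with ranges that overlapped in both lines. TRAF3 came after these 2 in TMD8, after these and TNFAIP3 in SUDHL2, and last in OCI-LY10. Its levels were 21.3 to 24.7 FPKM in TMD8, 16.9 to 20.5 in SUDHL2 and 1.60 to 2.07 in OCI-LY10. BIRC3 went the other way, at 16.9 to 31.2 FPKM in OCI-LY10, 7.44 to 10.4 in TMD8 and 8.76 to 10.98 in SUDHL2. TNFAIP3 was at 32.9 to 45.4 FPKM in OCI-LY10, 14.9 to 15.5 in TMD8 and 20.7 to 23.7 in SUDHL2, with no overlap between lines. TRAF1 was the lowest of the 10 in the TMD8 and SUDHL2 controls, where its range overlapped that of CYLD.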

How the data were processed

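The submitters' processing notes name Bowtie2, HISAT, StringTie and the build hg19. Versions, roles, annotation, filters and scaling were not given in the sources used here. TruSeq kits made the libraries, per the labels' protocols. The deposited tables give 1 value per gene and library, read as FPKM from the values, since no header names the unit. Lines with repeated names (4 in OCI-LY10, 10 in each other table) and 430 joined or copied lines at the end of the SUDHL2 table were left out. OCI-LY10 genes with at least 1 FPKM in at least 3 of 9 libraries entered a limma 3.58.1 fit (R 4.3.3) of log2(FPKM + 1), with a mean for each group and a trended prior variance. Benjamini-Hochberg adjustment ran over all 10612 genes, with calls at adjusted p under 0.05, and the script was tested on simulated data. Low values stood in whole-number ratios in too few OCI-LY10 genes (23.0 to 35.9% of those under 0.08 FPKM) to recover counts. No counting interval is therefore given. The labels do not say whether the 3 libraries of a group were separate cultures. P-values therefore measure the spread between libraries only, and that spread may be technical. The 10 regulators and the 49-gene list were chosen with earlier results of these data known. All 10 regulators and EGR1, the list's called genes and the 3 profiles nearest to each called regulator are named by rule. Counts and plots were made in Python 3.11.15 (numpy 2.4.6, pandas 2.3.3, matplotlib 3.10.9). Windows come from RefSeq (GRCh38.p14), a build other than the tables'. Alternatives covered the pseudocount, the filter, 2 scalings, a replicate block, array weights, no trend and each library left out. Replicate numbers were not taken as pairs in any reported OCI-LY10 contrast, and the replicate block was an alternative setting only. Between the hairpin labels all 3 same-numbered correlations of deviations from the group means were above 0.1, a hint from the data and not the labels. Leaving replicate 3 out of every group was added after seeing the data.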

Additional observations from a re-analysis of the deposited data

Results flagged for a closer look

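TNFAIP3 had all its EGR1-hairpin libraries above control in OCI-LY10, by a mean of 0.30 in log2(FPKM + 1), and both below control in TMD8, at a mean of −0.0417. It was above control with both labels in SUDHL2, at 0.15, opposite to the −0.0417 of TMD8. BIRC3 had every hairpin library below control in OCI-LY10, at −0.34, and both above it in SUDHL2, at 0.16. CFLAR, the gene of the caspase-8 inhibitor c-FLIP, was below control with both labels in TMD8, at −0.58, and above it with both in SUDHL2, at 0.17. In each case every hairpin library of 1 line lay on the other side of its controls from every hairpin library of another line. Some lay close to control: TNFAIP3 in TMD8 at −0.0558 and −0.0277, and BIRC3 with shEGR1#9 in SUDHL2 at 0.0194. By any amount, 35.7% of all genes were above control with both labels in TMD8 and 41.4% below it. In SUDHL2 these shares were 37.3% and 35.4%. These differences between lines were not tested, since TMD8 and SUDHL2 have 1 library per hairpin. The TMD8 difference of TNFAIP3 for shEGR1#8 turned from −0.06 to 0.03 with median-ratio scaling.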

How the results depend on the processing

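Over 17 other settings and 4 OCI-LY10 contrasts, 646 of 680 values of the 10 regulators kept their side of the threshold, 30 lost a call, 4 gained one and none that was called changed sign. All gained calls were of BIRC3. Leaving out 1 library gave 207 to 874 genes that rose and 75 to 438 that fell in the contrast of both labels (620 and 288 as reported), with 1 to 2 regulators rising and 0 to 1 falling, and 0 to 4 genes of the pathway list rising and 0 to 2 falling. For shEGR1#8 it gave 98 to 426 rising, 35 to 270 falling and 0 to 2 regulators rising. For shEGR1#9 it gave 103 to 751 rising, 39 to 392 falling, 0 to 2 regulators rising and 0 to 1 falling. Between the labels it gave 0 to 7 rising and 0 to 6 falling. The lowest counts of rising genes came without the third control and the highest, in the contrast of both labels and in that of shEGR1#9, without the third shEGR1#8 library. Array weights gave 1287 rising and 627 falling genes for both labels, with 1 regulator (BIRC3) falling and 9 and 2 list genes rising and falling, and 1267, 683 and 1 regulator falling for shEGR1#9. Replicate 3 left out of every group gave 246 and 107 genes for both labels with 1 regulator rising (TRAF1) and 0 list genes either way, 106 and 50 with 0 regulators for shEGR1#8, 127 and 60 with 0 regulators for shEGR1#9, and 1 falling gene between the labels. No filter gave 1 rising gene between the labels, and median-ratio scaling gave 1 rising regulator for shEGR1#8. In TMD8 a pseudocount of 0.1 put 2 regulators past the limit on the low side with shEGR1#9 (BIRC2 and CFLAR) in place of 1. The cause of these shifts was not tested, beyond the smaller number of libraries where some were left out.

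Same-numbered control and hairpin libraries did not deviate together (correlations of −0.188 to 0.060). The numbers were not taken as pairs in the reported contrasts, those between the hairpin labels included. Same-numbered shEGR1#8 and shEGR1#9 libraries correlated at 0.173, 0.134 and 0.260, against −0.269 to 0.146 for differently numbered ones, and between these labels the replicate block left 0 genes called. A replicate block gave 537 rising and 238 falling genes for both labels, 251 and 98 for shEGR1#8, and 242 and 109 for shEGR1#9. With it TRAF1 and TNFAIP3 kept their calls for both labels, and TRAF1 was the 1 regulator that rose with each single label. TNFAIP3 was then at a limma adjusted p of 0.0655 for shEGR1#8 and 0.0586 for shEGR1#9.

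Read depth is unknown, so no limit from counting can be set for low genes such as TRAF3.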

Other observations

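The OCI-LY10 table gives some values with more than 6 decimals. TNFAIP3, TNIP2, BIRC2, TRAF1, CYLD and CFLAR have such values in 9 of 9 libraries, TNIP1 in 8, TRAF3 in 2, and BIRC3 and TRAF2 in 0, and the reason was not tested.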
